A study of Mus musculus with 3 samples.

Results

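Heat shock and chaperone genes encode proteins that bind unfolded chains and help them fold, and the 10 described here, of 27998 genes counted, are Hspa1a, Hspa1b, Hspb1, Hsph1, Dnajb1, Hsp90aa1, Hspa8, Hsp90ab1, Hspd1 and Hspe1. They were taken by symbol, with no use of their measured values. The first 6 are treated as inducible members, whose transcription is raised by heat and other stress, and the last 4 as constitutive members. The counts come from nephron progenitors, the mesenchymal cells that give rise to nephrons, sorted by green fluorescence from mouse embryos of the strain Six2GFP+ at E14.5 (days of gestation). Embryonic kidneys of several litters were combined in each of 3 tubes, so an embryo cannot be traced, and every cell carried the reporter, with no untreated or wild-type group. Each tube gave 1 library on the 10x system, named here 1, 2 or 3 by its barcode suffix, because which suffix belongs to which labelled sample is not given in the labels. The labels put all 3 in 1 group.

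Hspa8 encodes HSC70, the constitutive HSP70 of the cytosol, and Hspa1a and Hspa1b encode inducible HSP70. Dnajb1 (HSP40) delivers clients to HSP70 and stimulates its ATPase, and Hsph1 (HSP110) helps it exchange nucleotide. Hsp90aa1 and Hsp90ab1 encode the inducible and the constitutive HSP90 of the cytosol, Hspd1 and Hspe1 the chaperonin and co-chaperonin of the mitochondrial matrix (HSP60 and HSP10), and Hspb1 a small heat shock protein that holds unfolded clients. Under stress, heat shock factor HSF1 forms trimers that bind inverted repeats of GAA in promoters. Some of these genes are also induced by tissue dissociation and transcribed in proliferating cells, so in sorted embryonic cells they are read beside immediate early and cell cycle genes.

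The promoters are shown because Hspa1a and Hspa1b are near copies of each other and were counted at very different levels. The sequences are from RefSeq (GRCm38.p6) and are the 250 bases before the annotated start, 5′ to 3′ on the gene's strand. Capitals mark a match to GAANNTTC, 2 facing GAA units. Hspa1a lies at chr17:34972157-34972406 on the minus strand, and Hspa1b at chr17:34959239-34959488 on the same strand.
Hspa1a: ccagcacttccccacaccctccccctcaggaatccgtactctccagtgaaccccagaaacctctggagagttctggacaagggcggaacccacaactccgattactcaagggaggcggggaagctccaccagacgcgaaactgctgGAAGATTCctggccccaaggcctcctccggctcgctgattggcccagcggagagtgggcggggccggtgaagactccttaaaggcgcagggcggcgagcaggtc
Hspa1b: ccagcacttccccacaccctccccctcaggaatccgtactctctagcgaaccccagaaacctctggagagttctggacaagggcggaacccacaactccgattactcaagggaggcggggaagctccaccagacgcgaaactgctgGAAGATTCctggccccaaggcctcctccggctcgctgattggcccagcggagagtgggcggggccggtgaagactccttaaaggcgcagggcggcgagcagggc
The 2 windows differed at 3 of 250 positions (98.8% identity), and each held 1 match, 104 bases before the start.

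Hspd1 and Hspe1 are neighbours on chromosome 1 whose annotated parts overlap in opposite directions, so the window before each start takes in the other. The stretch shown carries the longest run of facing units among the members with an entry and lies upstream of the Hspe1 start, at chr1:55088053-55088082, written on the plus strand, which is that of Hspe1. Capitals mark 4 units in a row.
Hspe1: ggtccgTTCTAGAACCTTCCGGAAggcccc
Of the 10 genes, 7 had an entry in the promoter table. Among these, 6 held GAANNTTC or TTCNNGAA, searched on both strands, in at least 1 window, against 12.8% of 32851 promoters of the same length. That share is per window, and some of the genes had more than 1. The windows of Hspa1a and Hspa1b are near copies and those of Hspd1 and Hspe1 overlap, so the 6 are not all separate sites. The longer motif of 3 units, GAANNTTCNNGAA or TTCNNGAANNTTC, which contains the shorter one, was found for Hspd1 and Hspe1, on the same stretch of bases. It was found in 0.466% of all promoters. Dnajb1 held neither in its windows. These are matches of letters and do not show binding. In the GENCODE M21 annotation (GRCm38), the transcribed regions of the members lie on chromosome 17 (Hspa1a at chr17:34969190-34972156, Hspa1b at chr17:34956436-34959238 and Hsp90ab1 at chr17:45567775-45573271), chromosome 1 (Hspd1 at chr1:55077835-55088243 and Hspe1 at chr1:55088132-55091307), chromosome 5 (Hspb1 at chr5:135887919-135889563 and Hsph1 at chr5:149614287-149636376), chromosome 8 (Dnajb1 at chr8:83608193-83612653), chromosome 9 (Hspa8 at chr9:40800984-40810087) and chromosome 12 (Hsp90aa1 at chr12:110690605-110702728).

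Cells were grouped by their deposited unique molecular identifiers (UMIs, whole-number counts of captured molecules). Six2-only cells had at least 1 UMI of Six2, the transcription factor of the self-renewing progenitor, and none of Fgf8, Wnt4 or Lhx1. Fgf8 cells had Fgf8, a growth factor expressed as progenitors commit, without Wnt4 or Lhx1. Wnt4 cells had Wnt4, the signal that starts epithelial conversion, without Lhx1. Lhx1 cells had Lhx1, a LIM homeobox gene of the early nephron. There were 3840, 2514, 410 and 79 such cells, and 1030 of 7873 kept cells fell in no gate. A gate that asks for a UMI favours deeper cells: in libraries 1, 2 and 3 the median was 15576, 11515 and 15332 UMIs in Six2-only cells and 20098, 14039 and 19669.5 in Wnt4 cells. In bulk sums of this kind, a change in all cells and a change in the share of some cells cannot be told apart.

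Six2 and Lhx1 set the gates and are left out of the marker sums given here. The other 7 nephron progenitor markers stood at 1177 to 1732 CPM (UMIs per 1000000 of the sum) in Six2-only cells and at 608 to 1144 CPM in Lhx1 cells, and the other 7 early nephron markers at 3.62 to 6.51 and at 159 to 260 CPM. Library 2 stood apart: ribosomal protein genes took 12.9% of its UMIs, against 24.4% and 20.9% in libraries 1 and 3, and 22 immediate early genes took 0.625%, against 0.281% and 0.379%. The libraries shared 22 barcode sequences among their kept cells. The Lhx1 gate also held ureteric markers, at 102, 377 and 205 CPM in libraries 1, 2 and 3 against 59.6, 79.9 and 65.2 CPM in Six2-only cells, and Calb1 stood at 0, 176 and 96.4 CPM. In Wnt4 cells the 6 immune markers summed to 3.51, 53.6 and 1.29 CPM, against 7.06, 1.61 and 10.9 CPM in Six2-only cells. In Lhx1 cells they summed to 0, 0 and 7.23 CPM, with 3 of them at 0 in every library.

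Most of the chaperone message was constitutive HSP70 and HSP90. UMIs are counted once per captured 3′ end, so the ranks below compare captured and counted molecules and are not divided by transcript length. Capture may differ between genes, as short transcripts, among them Hspe1, were lower in library 2 (below). Reads of Hspa8 and Hspe1 may also have been lost to or split with other genes. Hsp90ab1 was number 14 and Hspa8 number 25 of 19095 detected genes by mean CPM, followed by Hsp90aa1 at 114, Hspd1 at 149 and Hspe1 at 196. Dnajb1 stood at 1492, Hsph1 at 3204, Hspa1a at 6052, Hspb1 at 10123 and Hspa1b at 13831. All 10 genes together took 1.08%, 1.33% and 1.18% of the UMIs of Six2-only cells in libraries 1, 2 and 3. In order of mean level, the ranges over libraries of Hsp90ab1 and Hspa8 overlapped (4712 ± 444 and 4002 ± 777 CPM, SD, n = 3), as did those of Hspd1 (1025 ± 161 CPM) and Hspe1 (675 ± 300 CPM).

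**Figure D1:**
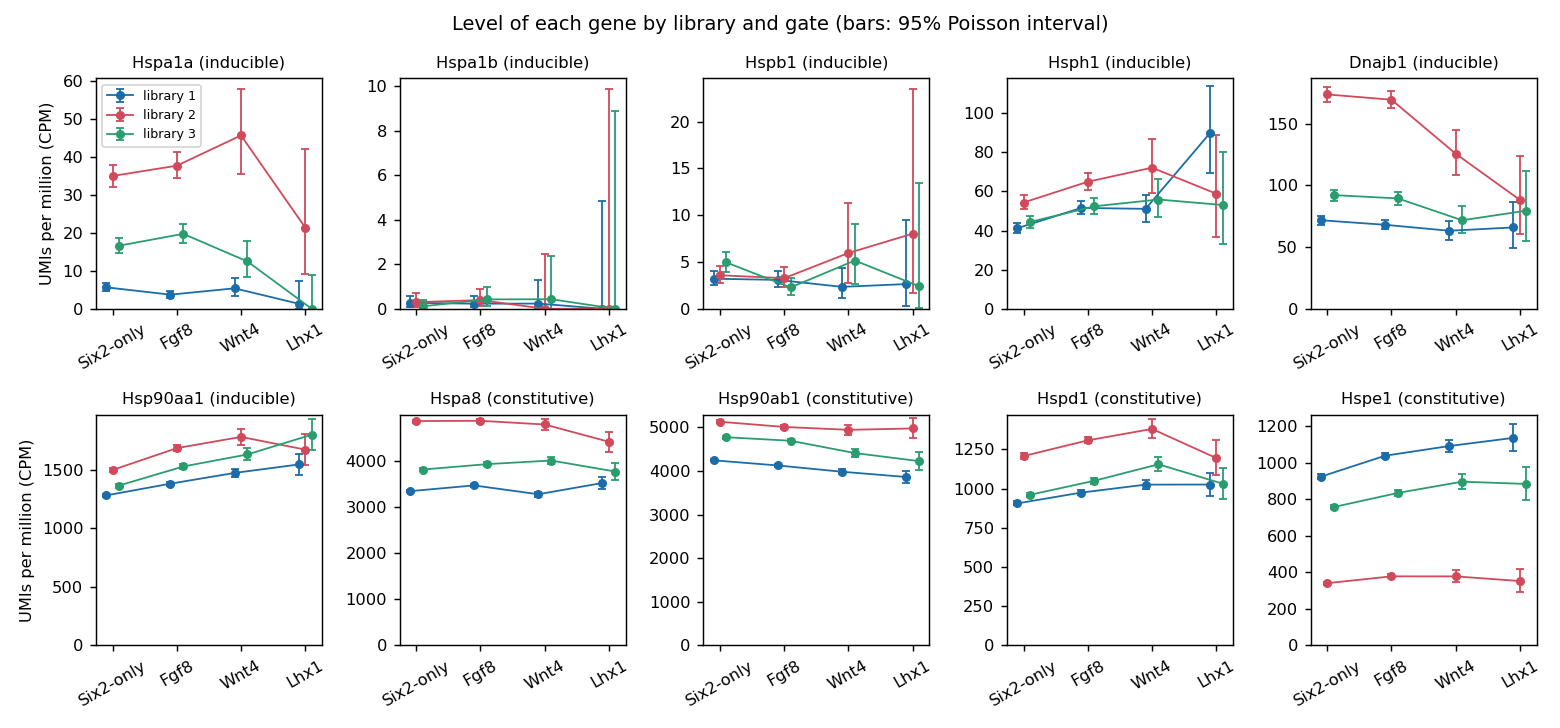
Level of each of the 10 genes in CPM (y axis, linear, from 0) by gate (x axis), 1 line per library with its 95% Poisson interval, which covers counting error only. Hsp90aa1 was lowest in Six2-only cells in each library, while the lines of Hspa1a, Dnajb1 and Hspe1 are separated by library more than by gate in the first 3 gates.

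In the HSP70 system, Hspa8 showed no difference that passed the test, while its co-chaperones Dnajb1 and Hsph1 moved in opposite directions in Wnt4 cells. Hspa8 stood at 3340, 4858 and 3809 CPM in Six2-only cells of libraries 1, 2 and 3, and at 3274, 4784 and 4004 CPM in Wnt4 cells. The groups overlapped, with library 2 highest in both. The fitted log2 fold change was -0.0013 ± 0.03 (SE; edgeR quasi-likelihood test, adjusted p = 0.985), with an interval of -0.06 to 0.06. In Fgf8 cells the log2 value of Hspa8 was 0.04 ± 0.03 (edgeR, adjusted p = 0.521).

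Dnajb1, the J-domain partner of HSP70, was at 71.8, 174 and 92.1 CPM in Six2-only cells and at 63.2, 126 and 71.7 CPM in Wnt4 cells. It was lower in Wnt4 cells of every library, although the 2 groups overlap because library 2 lies above the others. The log2 fold change was -0.33 ± 0.07 (SE; edgeR, adjusted p = 0.000745). In Fgf8 cells, at 68.1, 169 and 89.5 CPM, the log2 fold change was -0.04 ± 0.04 (edgeR, adjusted p = 0.57). In Lhx1 cells it was at 65.9, 88.2 and 79.5 CPM, a log2 fold change of -0.48 ± 0.14 against Six2-only cells (edgeR, adjusted p = 0.0348). Library 2 carried that fall, and without it the value was -0.20 (adjusted p = 0.518). The Lhx1 call of Dnajb1 was also lost without library 3 (edgeR, adjusted p = 0.0514) and with DESeq2 (adjusted p = 0.0949). With library totals alone as the scale it was lost too (edgeR, adjusted p = 0.0586), as it was without cells holding an immune or ureteric marker. With cells thinned to 8000 UMIs before gating, the mean of Dnajb1 was 110 CPM in Lhx1 and 109 CPM in Six2-only cells. There 1 member was called lower in Lhx1 cells, in place of 2. The count was also 1 without barcodes rich in A and T. It was 1 too without cells holding at least 3 immune markers or a UMI of Calb1, Gata3, Ret or Wnt11 (the narrower marker filter). The Wnt4 call of Dnajb1 was lost with cells thinned to 8000 UMIs and gated on what was left (log2 -0.23, adjusted p = 0.293). It was also lost without cells holding an immune or ureteric marker (log2 -0.17, edgeR, adjusted p = 0.366), which left 158 of 410 Wnt4 cells. The narrower marker filter left 400 Wnt4 cells. With it 4 members were called higher and 2 lower in Wnt4 cells, as many as in the full data. Immediate early genes were also lower in Wnt4 cells: they took 0.295%, 0.661% and 0.397% of UMIs in Six2-only cells and 0.231%, 0.514% and 0.28% in Wnt4 cells. Their part in the fall of Dnajb1 was not tested.

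Hsph1, the HSP110 exchange factor, was at 41.2, 54.3 and 44.4 CPM in Six2-only cells, 51.6, 64.9 and 52.4 CPM in Fgf8 cells and 51.1, 72.1 and 55.9 CPM in Wnt4 cells. Each library was higher in both later gates. The log2 fold change was 0.28 ± 0.05 in Fgf8 cells (SE; edgeR, adjusted p = 0.000301) and 0.33 ± 0.09 in Wnt4 cells (edgeR, adjusted p = 0.00678). In Lhx1 cells the log2 value was 0.63 ± 0.17 (edgeR, adjusted p = 0.0127), but library 1 carried most of it, at 89.7 CPM against 58.8 and 53 CPM in the other two. Without library 1 the Lhx1 value of Hsph1 was 0.14 (edgeR, adjusted p = 0.867). Its Lhx1 call was also lost with thinned cells and without cells holding an immune or ureteric marker, where 0 members were called higher. The Wnt4 call of Hsph1 was lost with thinned cells (log2 0.35, edgeR, adjusted p = 0.205). It was also lost without cells holding an immune or ureteric marker (log2 0.37, edgeR, adjusted p = 0.0669). With the narrower marker filter, 4 members were called higher in Wnt4 cells, as many as in the full data. The Fgf8 call of Hsph1 was lost with DESeq2 (adjusted p = 0.0541).

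Inducible HSP70 was rare and uneven. Hspa1a was at 5.65, 35 and 16.6 CPM in Six2-only cells of libraries 1, 2 and 3, at 3.72, 37.7 and 19.7 CPM in Fgf8 cells, and at 5.39, 45.7 and 12.5 CPM in Wnt4 cells. The libraries moved in different directions, with log2 ratios of -0.07, 0.38 and -0.42 for Wnt4 over Six2-only cells, and the fitted value was 0.07 ± 0.18 (SE; edgeR, adjusted p = 0.845, interval -0.29 to 0.43). In Fgf8 cells it was 0.07 ± 0.10 (edgeR, adjusted p = 0.759). Without cells holding at least 3 immune markers or a UMI of Calb1, Gata3, Ret or Wnt11, the Wnt4 value of Hspa1a was 0.11 (edgeR, adjusted p = 0.743). With cells thinned to 8000 UMIs, the Fgf8 value was 0.43 (edgeR, adjusted p = 0.0144). The Lhx1 gate held 9 UMIs of Hspa1a in all, 1, 8 and 0 in the 3 libraries, so no fold is given for it.

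Hspa1b had 13 UMIs in all Six2-only cells, 14 in Fgf8 cells, 2 in Wnt4 cells and 0 in Lhx1 cells, and did not pass the filter on low counts. In Six2-only cells this was 0.271, 0.298 and 0.111 CPM. The 2 genes are near copies: 47.1% of the 100-base windows of the Hspa1a transcript in the GENCODE M21 annotation also occur in Hspa1b. None of the windows in the last 500 bases do, which is where 3′ reads fall. No source used here says how reads shared by both were assigned, so the split between Hspa1a and Hspa1b is uncertain. Hspb1, the small heat shock protein, was at 3.21, 3.58 and 4.95 CPM in Six2-only cells and 2.34, 5.95 and 5.16 CPM in Wnt4 cells. Its log2 fold change was 0.02 ± 0.32 in Wnt4 cells (SE; edgeR, adjusted p = 0.978) and -0.39 ± 0.20 in Fgf8 cells (edgeR, adjusted p = 0.229). Its Lhx1 level rests on 6 UMIs.

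The HSP90 pair moved apart. Hsp90aa1, the inducible form, was at 1280, 1497 and 1365 CPM in Six2-only cells, 1380, 1684 and 1527 CPM in Fgf8 cells, 1472, 1780 and 1630 CPM in Wnt4 cells and 1545, 1671 and 1798 CPM in Lhx1 cells. Every library was lowest in Six2-only cells. Its log2 fold change against them was 0.15 ± 0.03 in Fgf8 cells (SE; edgeR, adjusted p = 0.000332), 0.23 ± 0.03 in Wnt4 cells (edgeR, adjusted p = 1e-06) and 0.24 ± 0.04 in Lhx1 cells (edgeR, adjusted p = 7.29e-05). The Lhx1 call of Hsp90aa1 was lost with thinned cells (log2 0.19, adjusted p = 0.348) and without cells holding an immune or ureteric marker (log2 0.15, adjusted p = 0.757), settings with 45 and 16 Lhx1 cells.

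Hsp90ab1, the constitutive form, was at 4241, 5125 and 4770 CPM in Six2-only cells and at 3980, 4939 and 4407 CPM in Wnt4 cells, lower in each library, with overlapping groups. The log2 fold change was -0.03 ± 0.03 in Fgf8 cells (SE; edgeR, adjusted p = 0.602), -0.09 ± 0.03 in Wnt4 cells (edgeR, adjusted p = 0.0176) and -0.16 ± 0.03 in Lhx1 cells (edgeR, adjusted p = 0.000879). The Wnt4 call was lost without library 1 (adjusted p = 0.464) or library 3 (adjusted p = 0.289), and with DESeq2 (adjusted p = 0.134). It was also lost with thinned cells and without cells holding an immune or ureteric marker, where 0 members were called lower. With the narrower marker filter, 2 members were called lower in Wnt4 cells, as many as in the full data. With ribosomal protein and mitochondrial genes left out, 1 member was called lower in Wnt4 cells in place of 2. The Lhx1 call was lost without library 1 (adjusted p = 0.262) and, narrowly, without library 3 (adjusted p = 0.0512). It was lost as well without cells holding an immune or ureteric marker, which left 16 Lhx1 cells.

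The ratio of Hsp90aa1 to Hsp90ab1 was 0.302, 0.292 and 0.286 in Six2-only cells of libraries 1, 2 and 3, 0.335, 0.336 and 0.326 in Fgf8 cells, and 0.37, 0.36 and 0.37 in Wnt4 cells. These 3 gates did not overlap. In Lhx1 cells the ratio was 0.4, 0.336 and 0.426, with library 2 back at its Fgf8 level. The ratio is given without a test.

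**Figure D2:**
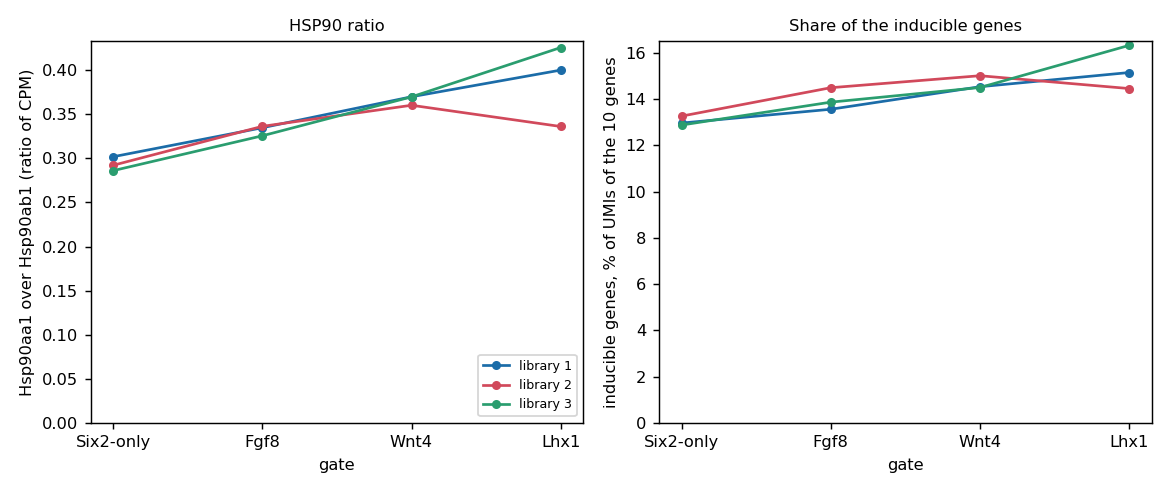
Left, the ratio of Hsp90aa1 to Hsp90ab1 CPM (y axis, from 0) by gate (x axis), 1 line per library. Right, the share of the UMIs of the 10 genes that came from the 6 inducible genes (y axis, percent, from 0). In both panels each library was higher in Wnt4 than in Six2-only cells, and library 2 was lower in Lhx1 than in Wnt4 cells.

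The inducible members took 13% ± 0.203 (SD, n = 3) of the UMIs of the 10 genes in Six2-only cells, 14% ± 0.475 in Fgf8 cells, 14.7% ± 0.285 in Wnt4 cells and 15.3% ± 0.945 in Lhx1 cells. Hsp90aa1 makes up most of that share. Counted as constitutive instead, it left 1.49% ± 0.459, 1.51% ± 0.471, 1.38% ± 0.402 and 1.31% ± 0.151 to the other 5 inducible members, and those gates overlapped.

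The mitochondrial chaperonin pair rose together from Six2-only to Wnt4 cells. Hspd1 was at 906, 1208 and 961 CPM in Six2-only cells, 975, 1308 and 1050 CPM in Fgf8 cells and 1026, 1381 and 1155 CPM in Wnt4 cells. All 3 libraries moved in the same direction at each step. Its log2 fold change was 0.12 ± 0.03 in Fgf8 cells (SE; edgeR, adjusted p = 0.00302) and 0.20 ± 0.03 in Wnt4 cells (edgeR, adjusted p = 7.87e-06). In Lhx1 cells, at 1026, 1195 and 1032 CPM it did not pass (edgeR, adjusted p = 0.489). The Fgf8 call was lost without library 1 (adjusted p = 0.077).

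Hspe1, its lid-forming partner, was at 924, 341 and 758 CPM in Six2-only cells, 1039, 379 and 835 CPM in Fgf8 cells and 1092, 378 and 897 CPM in Wnt4 cells. Library 2 was the lowest in every gate, in contrast to Hspd1, where it was the highest. Within each library Hspe1 was higher in the later gates. The log2 fold change was 0.16 ± 0.03 in Fgf8 cells (SE; edgeR, adjusted p = 0.000136), 0.22 ± 0.03 in Wnt4 cells (edgeR, adjusted p = 5.5e-06) and 0.20 ± 0.05 in Lhx1 cells (edgeR, adjusted p = 0.00538). Without library 1 the Lhx1 call was lost (adjusted p = 0.586). It was also lost with thinned cells and without cells holding an immune or ureteric marker.

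**Figure D3:**
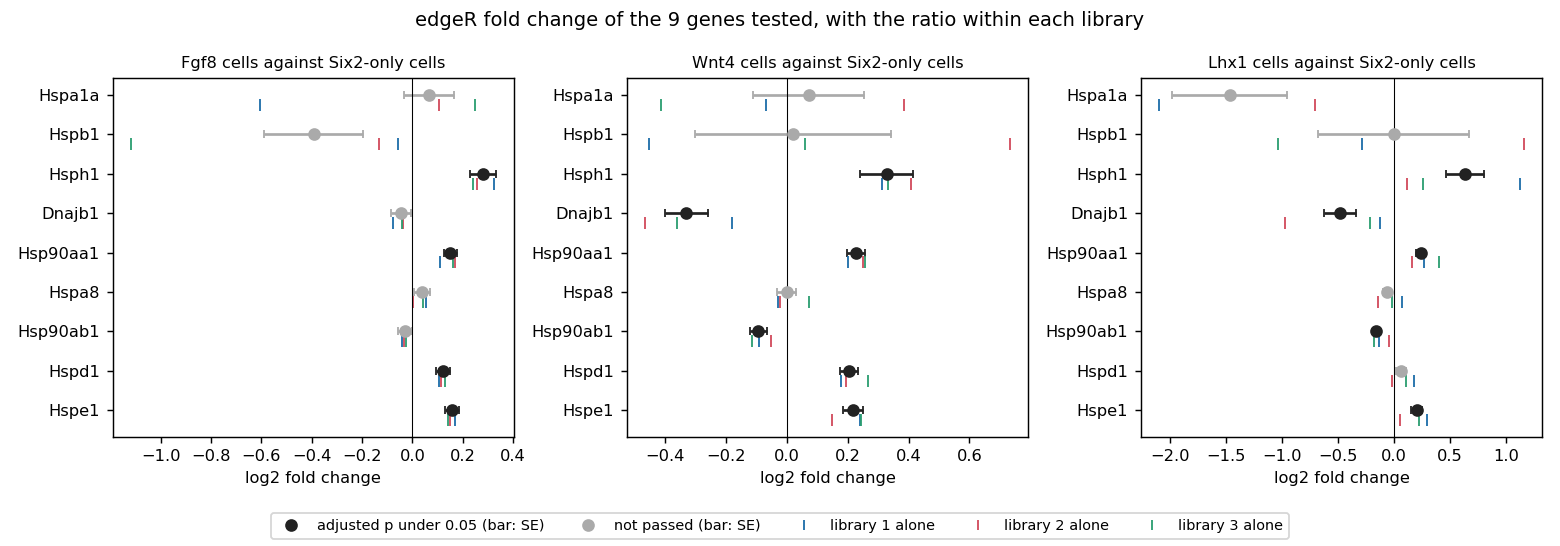
edgeR log2 fold change (x axis) of the 9 genes tested, with its SE as a bar, in Fgf8, Wnt4 and Lhx1 cells against Six2-only cells. Black points had an adjusted p under 0.05 and grey points did not, and the ticks show the log2 ratio of CPM within each library; ticks of a library with 0 UMIs are not drawn. The ticks of Hsp90aa1, Hspd1 and Hspe1 sit close together in the Fgf8 and Wnt4 panels, while those of Hspa1a and Hspb1 are scattered. The x axes differ between panels.

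Of the 9 members tested, 4 were higher and 0 lower in Fgf8 cells, against 9.67% of all 12719 genes called (5.02% higher and 4.65% lower), and the median log2 value of the 9 was 0.07, against -0.02 for all genes. In Wnt4 cells 4 were higher (Hsph1, Hsp90aa1, Hspd1 and Hspe1) and 2 lower (Dnajb1 and Hsp90ab1), against 16.8% of all genes (8.48% higher and 8.31% lower), with a median of 0.07 against -0.03. In Lhx1 cells 3 were higher and 2 lower, against 7.23% of all genes (4.15% higher and 3.07% lower), with a median of -0.0037 against -0.04. These 3 comparisons share the Six2-only sums and are not independent of each other. Between Lhx1 and Wnt4 cells 0 members passed with edgeR, against 1.6% of all genes (1.28% higher and 0.314% lower), and 0 passed with DESeq2. With each tool, 2 had an unadjusted p under 0.05, in edgeR Hspa1a and Hspd1. With no filter on low counts, 1 member, Hspa1a, was called lower in Lhx1 than in Wnt4 cells (edgeR, adjusted p = 0.0355). Without the library as a block, 0 members passed in any comparison with edgeR, and 0, 2, 0 and 2 had an unadjusted p under 0.05 in Fgf8, Wnt4, Lhx1 against Wnt4 and Lhx1 against Six2-only cells.

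The cell cycle moved with these groups. The 22 genes of the G2 and M phases took 0.291%, 0.316% and 0.311% of UMIs in Six2-only cells of libraries 1, 2 and 3, and 0.403%, 0.415% and 0.487% in Wnt4 cells. In Wnt4 cells 20 of the 22 were higher and 0 lower, and cells with more than 10 UMIs of these genes per 10000 made up 42.7% of Six2-only, 55.4% of Fgf8, 73.7% of Wnt4 and 73.4% of Lhx1 cells. Among the cells at or below that level, Hspd1, Hspe1 and Hsp90aa1 were still higher in Fgf8 cells (log2 0.12, 0.11 and 0.13; edgeR, adjusted p = 0.0012, 0.00534 and 0.000115), so 3 of 9 passed there, against 4.82% of the 10852 genes tested. In Wnt4 cells, of which 108 remained, 0 of 9 passed, against 0.921% of all genes, 4 had an unadjusted p under 0.05, and the log2 values were 0.10 for Hspd1, 0.12 for Hspe1, 0.14 for Hsp90aa1, 0.12 for Hsph1, -0.12 for Dnajb1 and -0.02 for Hsp90ab1. In Lhx1 cells, of which 21 remained, 0 of 9 passed against Six2-only cells, 2 had an unadjusted p under 0.05, and 0.0737% of all genes were called.

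The HSP90 ratio shows both movements. Among Six2-only cells it was 0.242, 0.237 and 0.225 in the low G2/M cells of libraries 1, 2 and 3, and 0.368, 0.356 and 0.363 in the others. Hsp90aa1 was at 1180 ± 110 CPM (SD, n = 3) in the low cells and 1586 ± 116 CPM in the others, whereas Hsp90ab1 was at 5033 ± 489 and 4383 ± 392 CPM. Within the low cells the ratio was 0.254, 0.264 and 0.247 in the Fgf8 gate and 0.248, 0.272 and 0.28 in the Wnt4 gate. Each library was above its Six2-only value in both. Within the other cells it was 0.387, 0.383 and 0.391 in the Fgf8 gate and 0.404, 0.39 and 0.393 in the Wnt4 gate, again above Six2-only cells in every library.

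Between library 2 and the other two, Hspa1a, Dnajb1 and Hspe1 differed most among the 8 members of at least 10 CPM. In Six2-only cells, library 2 held 6.19 times the Hspa1a of library 1 (95% interval 5.09 to 7.57, counting error only) and 2.1 times that of library 3. For Dnajb1 the ratios were 2.42 (2.28 to 2.58) and 1.89. These 2 genes were the members of at least 10 CPM that were at least 2-fold higher in library 2 than in library 1, against 0.573% of the 8025 genes of at least 10 CPM, and against library 3 it was Hspa1a, beside 0.349% of genes. Library 3 held 2.94 times the Hspa1a of library 1 (2.38 to 3.65), against 0.137% of genes at least 2-fold higher in that pair and 0.586% at least 2-fold lower. The order of libraries, 2 over 3 over 1, was also that of immediate early genes and the reverse of that of ribosomal protein genes, and neither was tested as a source of the difference.

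Hspa8 was 1.45 times as high in library 2 as in library 1, Hspd1 1.33 times, Hsph1 1.32 times, Hsp90ab1 1.21 times and Hsp90aa1 1.17 times. The median gene was at log2 0.39, so on this scale Hsp90aa1 (0.23) and Hsp90ab1 (0.27) were below the median gene, Hsph1 (0.40) and Hspd1 (0.42) were close to it, and Hspa8 (0.54) was above. Each library is 1 tube, so these ratios have no test.

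Hspe1 went the other way, at 0.369 times the level of library 1 (0.358 to 0.38), and 0.45 times that of library 3. It was the 1 member at least 2-fold lower in library 2, against 3.83% of genes in the first pair and 3.23% in the second. Its ratio to Hspd1 therefore separated the libraries and not the gates: Hspd1 over Hspe1 was 0.98, 3.54 and 1.27 in Six2-only cells and 0.939, 3.65 and 1.29 in Wnt4 cells. The longest coding transcript of Hspe1 has 774 bases and that of Hspd1 has 2423. Short transcripts were lower in library 2 in general. The 216 genes with transcripts under 800 bases that are not ribosomal proteins had a median log2 ratio of -1.39 between libraries 2 and 1, the 80 ribosomal protein genes one of -1.56, and genes of 2000 to 4000 bases one of 0.43. The log2 ratio of Hspe1 was -1.44. Between libraries 3 and 1 the same short genes had a median of -0.20 and Hspe1 was at -0.29. Whether transcript length sets the level of Hspe1 was not tested.

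**Figure D4:**
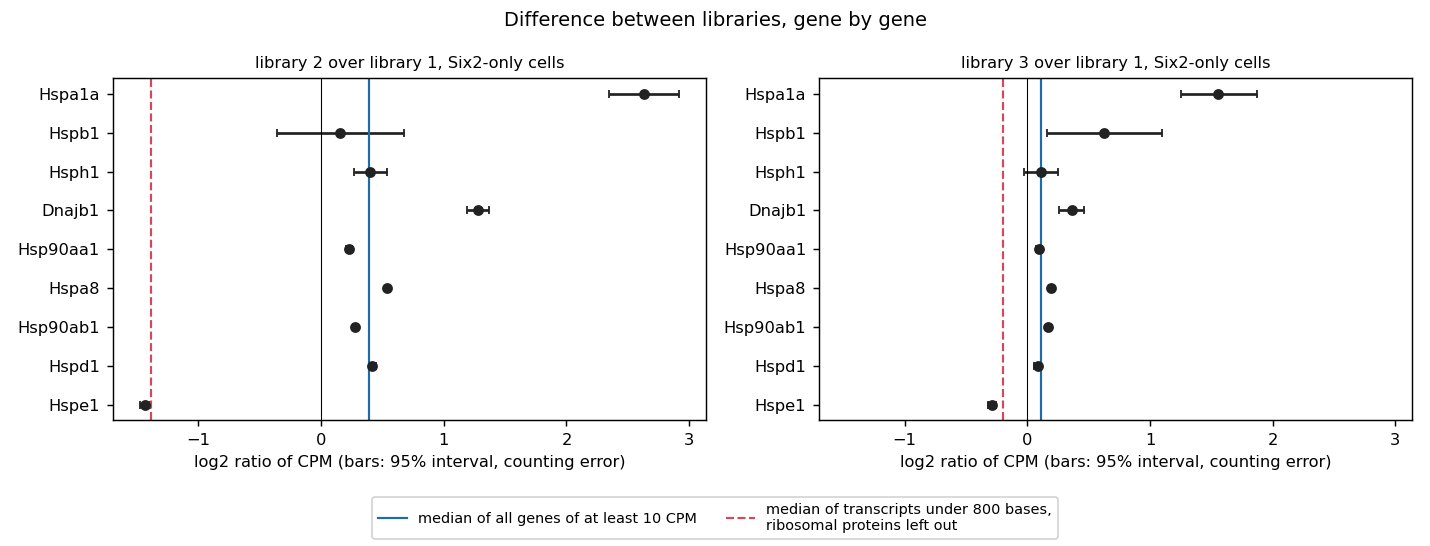
log2 ratio of CPM between libraries (x axis) for 9 of the genes in Six2-only cells, with 95% intervals for counting error. The solid line is the median of the 8025 genes of at least 10 CPM and the dashed line that of transcripts under 800 bases without ribosomal proteins. Hspa1a lies far to the right in both panels, and Hspe1 lies next to the dashed line.

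Within a library, the chaperones were spread over cells in different ways. After thinning each cell to 8000 UMIs (448 of the kept cells were shallower and left out), Hspa8 and Hsp90ab1 were found in all 3672 Six2-only cells. Hspa8 ran from 12 UMIs at the 5th percentile to 44 at the 95th in library 1, from 19 to 62 in library 2 and from 14 to 50 in library 3, with a variance over mean of 3.56, 4.79 and 3.92. That of Hsp90ab1 was 1.92, 2.17 and 2.02. The constitutive HSP70 message was thus more variable from cell to cell than the constitutive HSP90 message in each library.

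Hspa1a had the opposite form. It was found in 3.42%, 9.16% and 5.1% of thinned Six2-only cells in libraries 1, 2 and 3, or 5.94% in all (exact binomial interval 5.19% to 6.75%; 7.81% before thinning). The top 1% of cells held 47.5%, 37.1% and 48.1% of its UMIs, up to 3, 13 and 9 in 1 cell. Cells with at least 3 UMIs numbered 5, 42 and 17. That top share is high for any gene found in few cells: for Hspb1 it was 34.1%, 54.3% and 37.1%. The variance over mean was 1.63, 4.98 and 3.89 for Hspa1a and 1.02, 1.43 and 1.08 for Hspb1. By gate, the thinned share of cells with Hspa1a was 6.08% in Fgf8 cells, 5.49% in Wnt4 cells (3.47% to 8.19%) and 2.56% in Lhx1 cells (0.312% to 8.96%), with overlapping intervals.

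For a sense of free RNA, Six2 itself was found in 6.25% of 48 thinned cells with at least 3 of 6 immune markers. That rests on 3 cells (exact binomial interval 1.31% to 17.2%) and on a gene of higher level than Hspa1a. Before thinning, all 73 cells with these markers had a median of 9468 UMIs, against 14110 in all 3840 Six2-only cells. It gives no background share for Hspa1a, Hspb1 (2.78%) or Hspa1b (0.218%), so their shares are of cells with a UMI and not of expressing cells. In those 48 cells Hspa1a was found in 18.8% (8.95% to 32.6%) and Dnajb1 in 52.1%, against 48% of Six2-only cells. Dnajb1 stood between the extremes in the share held by the top 1% of cells, at 7.76%, 8.81% and 10.3% of its UMIs. Its variance over mean was 1.27, 2.97 and 1.94. Hsph1, found in 29.7% of Six2-only cells, had a variance over mean of 1.01, 1.03 and 1.08, close to that of random sampling.

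Over Six2-only cells the members did not vary as 1 block. Pearson's r of log2(1 + UMIs) over 1286, 1288 and 1098 cells of libraries 1, 2 and 3, which share depth after thinning and the library, is given as the mean of the 3. It was highest for Hsp90aa1 with Hspd1 (0.286), then for Hspd1 with Hspe1 (0.18), Hsp90aa1 with Hspe1 (0.174) and Dnajb1 with Hspa8 (0.144). Hspa8 and Hsp90ab1 had a negative r in every library (-0.142, -0.129 and -0.0877). For Hspa1a the highest r with a member was that with Dnajb1 (0.0843), which is weak, in sparse counts.

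The cells' immediate early and G2/M sums separated the members further. Hspa8 had r = 0.265 with the summed immediate early genes, Dnajb1 0.153 and Hsp90ab1 0.134, while Hspd1 (-0.112), Hspe1 (-0.0939) and Hsp90aa1 (-0.0831) were negative. With the summed G2 and M phase genes, Hsp90aa1 had r = 0.334 and Hsp90ab1 -0.317. These signs were the same in all 3 libraries. The division did not follow the classes: inducible Hsp90aa1 had the signs of constitutive Hspd1 and Hspe1, and inducible Dnajb1 the immediate early sign of constitutive Hspa8.

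**Figure D5:**
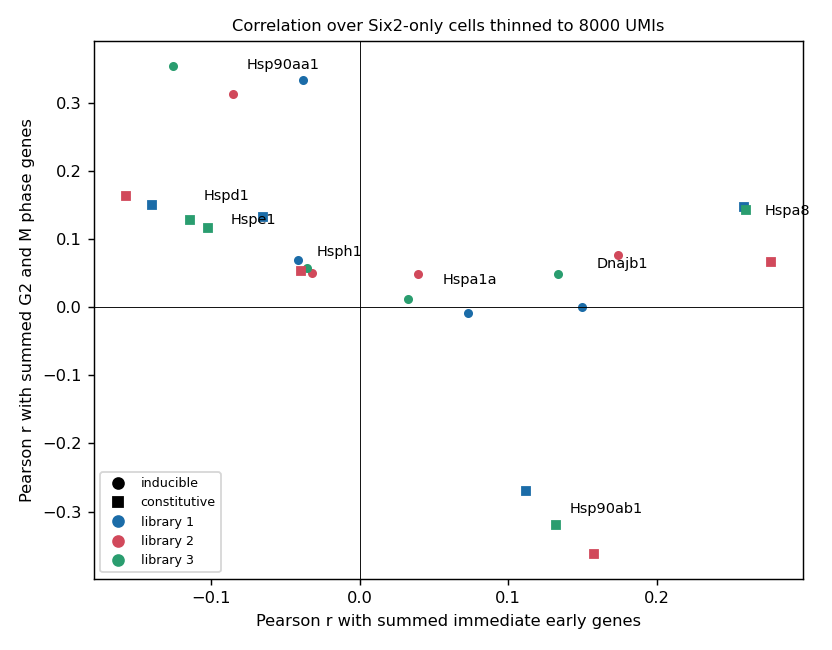
Pearson's r over thinned Six2-only cells with the summed immediate early genes (x axis) and with the summed G2 and M phase genes (y axis) for 8 members, 1 point per library, circles for inducible and squares for constitutive members. Hsp90aa1 lies at the top left and Hsp90ab1 at the bottom right in all 3 libraries, and Hspa8 lies furthest to the right.

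The comparison took 9003 genes found in at least 5% of these cells, members included, and the genes named are not members. The 5 with the highest mean r with Hspa8 were Malat1 (0.294), a nuclear noncoding RNA, Tuba1b (0.264), a tubulin, Rrm2 (0.251), a subunit of ribonucleotide reductase, Ier2 (0.239), an immediate early gene, and Top2a (0.236), a topoisomerase of dividing cells. For Hspd1 they were Eif5a (0.299), a translation factor, Slc25a5 (0.298), the mitochondrial ADP/ATP carrier, Ran (0.277), the nuclear transport GTPase, Ldha (0.275), lactate dehydrogenase A, and Mif (0.264). For Hspa1a the highest values were 0.0897 for Jun, a component of AP-1, 0.0701 for Nfyb, 0.0655 for Gga3, 0.0639 for Btrc and 0.0634 for Shmt1, which are too weak to call a likeness. The median over all genes compared was near 0 for each.

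Related chaperone and heat shock genes were taken from 6 lists, and immediate early and G2 and M phase genes from 2 more, chosen with earlier results of these data known. The counts below stand beside 8.48% of all genes higher and 8.31% lower in Wnt4 cells, and 5.02% and 4.65% in Fgf8 cells. Of 25 cytosolic co-chaperones, 10 were higher and 1 lower in Wnt4 cells, with a median log2 value of 0.14. They were led by Cacybp (0.39), Hspa4 (0.28), an HSP110 relative, and Ptges3 (0.25), the HSP90 co-chaperone p23. In Fgf8 cells 8 were higher and 1 lower, with a median of 0.08, led by Cacybp (0.20), Stip1 (0.16), which bridges HSP70 and HSP90, and Ptges3 (0.15). All the values named here and in the next paragraph passed with edgeR and had the same direction in 3 of 3 libraries. In the low G2/M cells 3 of 24 passed in Fgf8 cells and 0 in Wnt4 cells.

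Of 21 chaperones of the endoplasmic reticulum, 10 were higher and 1 lower in Wnt4 cells, with a median of 0.19. The 3 with the smallest p were Hsp90b1 (0.33), the HSP90 of that compartment, Manf (0.30) and Pdia6 (0.25), a disulfide isomerase. In Fgf8 cells 5 were higher and 0 lower, among them Manf (0.16), Hspa5 (0.12), the HSP70 of that compartment, and Dnajb11 (0.14). In the low G2/M cells 3 of the 21 were higher in Fgf8 cells and 0 in Wnt4 cells, where their median was 0.05. Of 13 further mitochondrial chaperones and proteases, 1 was higher in each of these gates, Hspa9, the mitochondrial HSP70 (0.15 in Wnt4 and 0.09 in Fgf8 cells). Of 13 subunits of the TRiC chaperonin and prefoldin, 3 were higher and 1 lower in Wnt4 cells, including Pfdn4 (0.26), Cct8 (0.11) and Pfdn5 (-0.20), and 3 were higher in Fgf8 cells, Pfdn6 (0.13), Cct3 (0.10) and Pfdn4 (0.11). Of 3 tested genes on the list named for small heat shock proteins, Hspb11 was lower in both (-0.35 in Wnt4 and -0.22 in Fgf8 cells). A place on that list does not show that Hspb11 acts as a chaperone.

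Of 4 tested heat shock factors and binding proteins, 0 passed in Fgf8 or Wnt4 cells with edgeR. In Lhx1 against Six2-only cells, 3 co-chaperones and 8 chaperones of the endoplasmic reticulum were higher and 0 of either were lower. There 1 subunit of TRiC and prefoldin was lower. Of all genes, 4.15% were higher and 3.07% lower in that comparison. Its 919 calls over all genes fell to 143 with thinned cells and 8 in low G2/M cells. Without cells holding an immune or ureteric marker, 5 remained. Between Lhx1 and Wnt4 cells, Hspa5 (0.23 ± 0.06, SE; edgeR, adjusted p = 0.0351) was the 1 list gene that passed. That call was lost without library 1 (adjusted p = 0.724) or library 2 (adjusted p = 0.115). Without cells holding an immune or ureteric marker, which left 16 Lhx1 cells, the direction turned (log2 -0.69, adjusted p = 0.0143). Of 22 immediate early genes, whose transcription needs no new protein, 12 were lower in Fgf8 cells and 0 higher, led by Btg2 (-0.42), Nr4a1 (-0.77) and Junb (-0.33), and in Wnt4 cells 12 were lower and 5 higher, led by Ier2 (-0.54), Btg2 (-0.83) and Junb (-0.69). Of the G2 and M phase genes, 19 were higher in Fgf8 cells, led by Ccnb2 (0.37), Cdca3 (0.36) and Cenpa (0.39), and in Wnt4 cells the first were Hmgb2 (0.50), Bub1 (0.83) and Birc5 (0.60).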

How the data were processed

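The authors deposited whole-number UMI counts per gene and cell, and the submitters' processing notes name Cell Ranger 1.3.1 and the build mm10; the libraries used the 10x version 2 chemistry, per the labels. The members, gene lists and most alternatives were chosen with earlier results of these data known. Cells with at least 1000 genes and at most 10% mitochondrial UMIs were kept (7898 of 7924 barcodes). Scrublet called 23 cells (0.291%), too few for the caller to have worked, so doublets have to be taken as present. Those and 2 cells of over 1% haemoglobin were left out, leaving 7873 cells: 3016, 2756 and 2101 in libraries 1, 2 and 3, with 50641865, 35193842 and 35406343 UMIs. Cells with Lhx1 (20 and 22) were taken out of the Six2-only and Fgf8 gates.

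Counts were summed per library and gate (12 sums) and tested in edgeR 4.0.16 (R 4.3.3; quasi-likelihood test, TMM, filterByExpr, 12719 genes, library as a block, two-sided, Benjamini-Hochberg adjustment over all genes, threshold 0.05). Gates of 1 library come from the same tube, which is the pairing. p-values measure only how differences between gates within a tube vary over the 3 tubes, and that variation may be technical. Intervals of log2 values are 95% intervals from the SE. All 10 members are named, and from each list up to 3 genes of smallest p among those that passed, for Fgf8 and Wnt4 cells against Six2-only cells and Lhx1 against Wnt4 cells. On simulated counts for 12284 genes of the Wnt4 comparison, 32 of 100 genes changed 1.25-fold and 62 of 100 changed 1.5-fold were called, with 10 false calls. In the last 500 bases of their transcripts, 79.3% of the 100-base windows of Hspa8 and 34.4% of those of Hspe1 also occur in other annotated genes, mostly pseudogenes (GENCODE M21), and reads from these may have been lost or split. Values were not divided by length. Alternatives included DESeq2 1.42.0, library totals without TMM, no filter, no block, each library left out, thinning before gating, other cell filters and sums without ribosomal protein and mitochondrial genes. The text table holding the same cells was not used here.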

Additional observations from a re-analysis of the deposited data

How the results depend on the processing

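The library is the pairing here, since gates of a tube share its cells. Without the replicate block, edgeR called 1, 259, 96 and 346 genes in Fgf8, Wnt4, Lhx1 against Wnt4 and Lhx1 against Six2-only cells, in place of 1230, 2136, 203 and 919. In the same order it called 523, 100, 8 and 8 in cells low in G2 and M phase genes, 522, 688, 44 and 143 with cells thinned to 8000 UMIs and gated again on the thinned counts (244 Wnt4 and 45 Lhx1 cells), and 413, 974, 56 and 5 without cells holding an immune or ureteric marker, which left 2574 of 6843 gated cells and 16 of the Lhx1 gate. DESeq2 called 281 in Fgf8 cells, and the fit with no filter 312 in Lhx1 against Wnt4 cells. With each library left out in turn the ranges were 339 to 1004, 1011 to 2058, 54 to 255 and 243 to 1078, lowest without library 1. These settings use fewer cells or samples; the cause of the other differences was not tested. The low G2/M setting, the narrower marker filter and the sums without ribosomal protein and mitochondrial genes were chosen after seeing the data.

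The inducible share was 12.7% in Six2-only and 14.4% in Wnt4 cells after thinning, and with Hsp90aa1 as constitutive 1.49%, 1.51%, 1.38% and 1.31% by gate. Of 540 alternative log2 values of members over the 4 comparisons, 57 changed sign, 21 in Lhx1 against Wnt4 and 17 in Lhx1 against Six2-only cells; 3 of the 57 were called in the full data and 0 in the alternative. Those of values given above follow. In low G2/M cells Fgf8 values became -0.13 for Hspa1a (-0.03 with DESeq2, which gave no adjusted p), -0.0085 for Hspa8 and 0.012 for Hsp90ab1, and the Wnt4 value of Hspa1a -0.82. With thinning, Fgf8 values were 0.050 for Dnajb1 and 0.0039 for Hsp90ab1. The Wnt4 value of Hspa1a was -0.0074 with DESeq2, -0.074 without the block, -0.10 without barcodes rich in A and T, and -0.24 to 0.29 with a library left out; that of Hspb1 was -0.049 without those barcodes and -0.21 to 0.36 with a library left out. The Wnt4 value of Hspa8 was 0.021 with DESeq2, 0.0059 with library totals, 0.0034 without the block, 0.021 without ribosomal protein and mitochondrial genes, and -0.022 to 0.035 with a library left out. Against Six2-only cells, Lhx1 values became 0.17 for Dnajb1 without marker-positive cells, and for Hspe1 -0.023 with thinning and -0.092 in low G2/M cells. Among other genes, low G2/M cells gave -0.067 for Cenpa in Fgf8 cells, and 0.040 for Hspb11 and -0.46 for Bub1 in Wnt4 cells. Hspa5 between Lhx1 and Wnt4 cells became -0.10 in low G2/M cells and -0.69 without marker-positive cells (edgeR, adjusted p = 0.0143), on those 16 Lhx1 cells. With 79 cells, the Lhx1 gate limits what can be seen for the rare members.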
